A study of Parasteatoda tepidariorum with 75 samples.

Results

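The chromatin modifier and remodelling genes of the common house spider Parasteatoda tepidariorum were taken here as the gene models whose deposited description holds histone-lysine, histone acetyltransferase, histone deacetylase, lysine-specific demethylase, polycomb, chromodomain, bromodomain, SWI/SNF or DNA methyltransferase. The rule took 120 of 27990 aug3 gene models, a set of predicted genes on the Ptep_1.0 genome assembly. The members were 53 histone lysine methyltransferases, 9 lysine demethylases, 9 histone acetyltransferases, 12 histone deacetylases and their complex subunits, 14 polycomb models, 6 chromodomain models, 11 bromodomain models, 5 SWI/SNF models and 1 model with DNA methyltransferase in its name.

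The study asked how hedgehog signalling and the homeobox gene Pt-msx1 pattern the early spider embryo. Poly(A) RNA came from pooled sibling embryos of single females at 3 points, early in stage 3, late in stage 5 and early in stage 6. An egg sac that a female laid before her first injection of double-stranded RNA (dsRNA) gave the untreated samples. The parental RNA interference (pRNAi) samples came from 1 to 3 egg sacs of the same female on days 13 to 24 after it. The injected dsRNA was that of Pt-hh (the hedgehog ligand, 2 females), Pt-ptc (patched, the hedgehog receptor, 3 females), Pt-msx1 (3 females) or gfp (green fluorescent protein, a sequence the spider lacks, 5 females). Pt-hh and Pt-ptc females and gfp females 1 to 3 gave stages 3 and 5, and Pt-msx1 females and gfp females 4 and 5 gave stages 5 and 6. In every pRNAi comparison the untreated egg sac was also the earlier one of that female, so injection and order of laying cannot be told apart, and a comparison with gfp sets only the target of the dsRNA apart from both.

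DNA in a nucleus is wound around histones, and the packing is altered by several kinds of protein. Methyltransferases and acetyltransferases write marks on histone tails, demethylases and deacetylases erase them, and bromodomains and chromodomains bind acetylated and methylated lysines. SWI/SNF and CHD proteins use ATP to move nucleosomes, while polycomb complexes hold genes silent and trithorax-type methyltransferases keep them active. In animal embryos many of these RNAs are laid into the egg by the mother, and the embryo's own genome is switched on later, so a level at an early stage can be maternal, zygotic or both.

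The 68 libraries of the count table, 26 untreated and 42 pRNAi, held between 5961730 and 16400327 counted reads each, with a median of 9854679. A pair of libraries stood out before any comparison. The pRNAi library of gfp female 5 at stage 6 and that of Pt-msx1 female 1 at stage 6 held identical counts for every gene model, 10105237 reads in both. So 1 of them does not hold what its label says. Stage 6 results are given with and without these females where enough females were left. Pt-hh RNA itself fell in the Pt-hh pRNAi libraries, by 4.0 on the log2 scale at stage 5. Pt-ptc RNA differed by -0.91 (SE 0.16, adjusted p 0.0227) at stage 3 and by 0.21 (SE 0.09) at stage 5 in Pt-ptc pRNAi, neither past the threshold of 0.01. The paper called Pt-ptc at stage 3 only, by another rule than the single fit used here. It took an FDR under 0.01 in any of several comparisons of egg sacs by day of laying. The paper proposes that knockdown of Pt-ptc activates its own transcription. In Pt-ptc pRNAi at stage 5, Pt-msx1 RNA differed by -5.95 (SE 0.19), Pt-opa by 1.12 (SE 0.10) and Pt-lab-A by 1.21 (SE 0.12), all past the threshold. Pt-otd (0.66, SE 0.16) was not past it, and at stage 3 none of them was. Pt-msx1 RNA differed by 0.01 (SE 0.16) at stage 5 and by -0.07 (SE 0.19) at stage 6 in the libraries labelled Pt-msx1 pRNAi, so its read counts do not check that label. From stage 3 to stage 5 in untreated embryos the germ disc gene Pt-otd rose from 1.8 to 11.6 CPM (counts scaled to library size) to 45.1 to 141 CPM over the 8 females, while Pt-opa (0.01, adjusted p 0.946) and Pt-lab-A (0.17, adjusted p 0.337) were not called. Summed vitellogenin and hemocyanin RNA, 13 models that would mark yolk or maternal tissue, lay at 14.1 to 28.9 CPM at stage 3 and 29.3 to 60.2 CPM at stage 5, and the part of this difference in the results was not tested. In pooled embryos, fewer cells that make an RNA and less RNA per cell cannot be told apart.

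Not every member was a measurable gene, and the names in the annotation are looser than the families. Of the 120 members, 88 passed the filter of 1 CPM in at least 1 untreated library of stages 3 and 5, and 31 were tested in no comparison. The 32 members not tested between these stages had at most 113 counts over all 68 libraries, and 27 of them were named SETMAR-like or PRDM9, names that the annotation gives to many short models. SETMAR is known as a fusion of a methyltransferase with a transposase, and PRDM9 as a zinc finger methyltransferase of meiosis in mammals. The model with DNA methyltransferase in its name was DNA methyltransferase 1-associated protein 1, which is not a methyltransferase, so no DNA methyltransferase is among the members. Enhancer of polycomb, which the rule takes for the word polycomb, is known as a subunit of a histone acetyltransferase complex. The 120 models carry 108 gene identifiers, since 11 identifiers are shared by 23 models.

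Between early stage 3, before the germ disc is complete, and late stage 5, when the disc is being patterned, most measurable chromatin genes changed in untreated embryos. Of 88 members tested, 61 were called (69.3%), 33 higher and 28 lower at stage 5, where 65.8% of all 14721 models tested were called, 31.9% higher and 33.9% lower. The members' share was thus near that of all genes, and their median log2 difference was 0.13, against -0.07 over all models tested. Among the members, 22 had a log2 difference of 1 or more and 19 had one of -1 or less. The shares of all models at these sizes, or moving alike in every female, are not given here. Such counts are thus not read as particular to the members. Of the 61 called, 55 moved the same way in all 8 females, and the ranges of the 8 and 8 libraries did not overlap for 41 of the 88, against 38.4% of all models tested. The 27 members that were not called included 23 with a difference under 0.5 in size. All differences below are log2 fold changes with their standard error (SE) from edgeR's quasi-likelihood test with the female as a block, and a call is a Benjamini-Hochberg adjusted p under 0.01 over all models tested.

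Of the 61 calls, 52 held under every alternative run, including each female left out. The 9 others were mostly small or low. SETD2 model aug3.g17463 lost the call without any female but gfp female 2 (adjusted p 0.0136 to 0.026), and aug3.g8161 without Pt-hh female 1, any Pt-ptc female or gfp female 1 or 3 (0.0103 to 0.0221). BRD7-like lost it without Pt-hh female 1 or 2, Pt-ptc female 3 or gfp female 1 or 3 (0.0153 to 0.0223), SAP130 without any of the Pt-ptc females (0.0119 to 0.016), and SETDB1 model aug3.g4241 without any female but gfp female 1 (0.0116 to 0.0321). PRDM9 model aug3.g6110 lost it without Pt-hh female 1 (0.0124), and its adjusted p was 0.523 in DESeq2. Eed (0.034) and SETMAR-like aug3.g4798 (0.0101) lost it only with no replicate block, and NO66 only with another scaling.

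**Figure D1:**
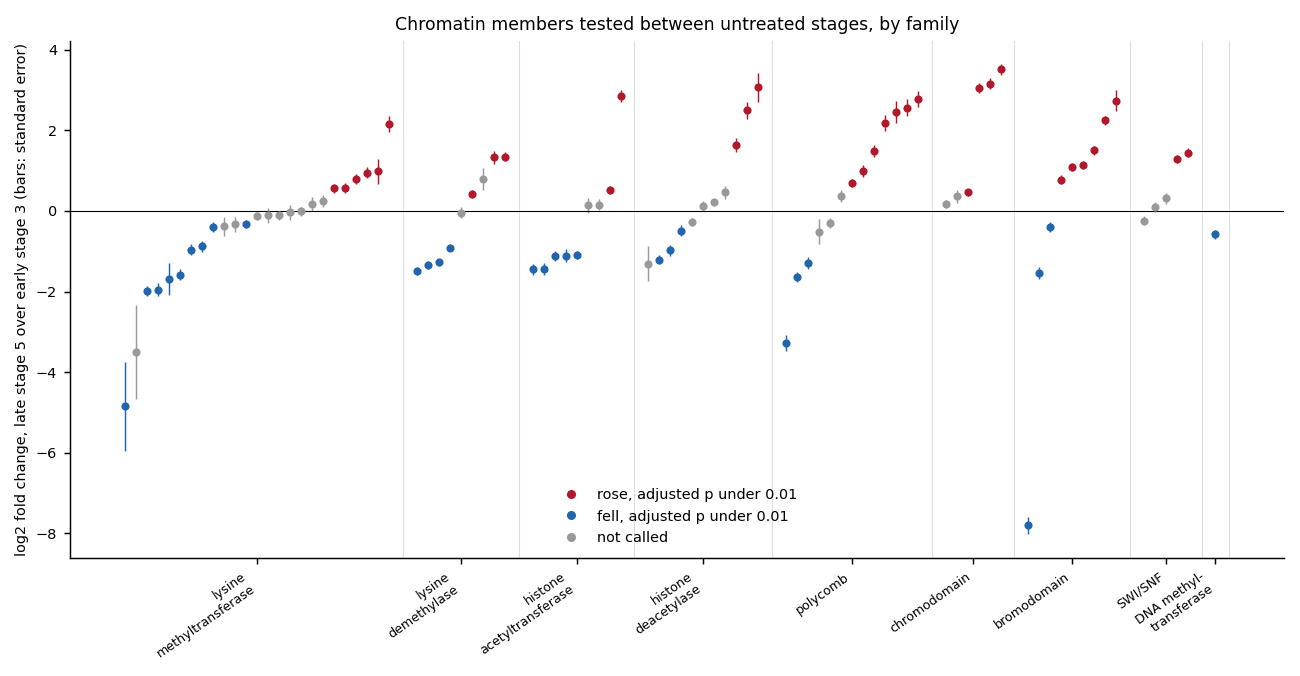
Log2 fold change between untreated late stage 5 and early stage 3 for the 88 members tested, 1 point per gene model with its standard error, ordered by family along the horizontal axis. Red points rose and blue points fell at an adjusted p under 0.01, and grey points were not called; the lone point near the bottom is the BRD2 model at -7.8.

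The families did not move as units. Chromodomain models were called higher in 4 of 6 tested and lower in 0, SWI/SNF models higher in 2 of 5 and lower in 0, and bromodomain models higher in 6 of 9 and lower in 3. Polycomb models were higher in 7 of 13 and lower in 3, of which 3 of the higher models are enhancer of polycomb. Acetyltransferases were lower in 5 of 9 and higher in 2, and methyltransferases lower in 9 of 25 and higher in 6. Demethylases, with 3 higher and 4 lower of 9, and deacetylases, with 3 higher and 3 lower of 11, were divided. Family medians ran from -1.10 for the acetyltransferases to 1.76 for the chromodomain models. These are counts of gene models, several of which share an identifier, and no difference between families was tested.

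**Figure D2:**
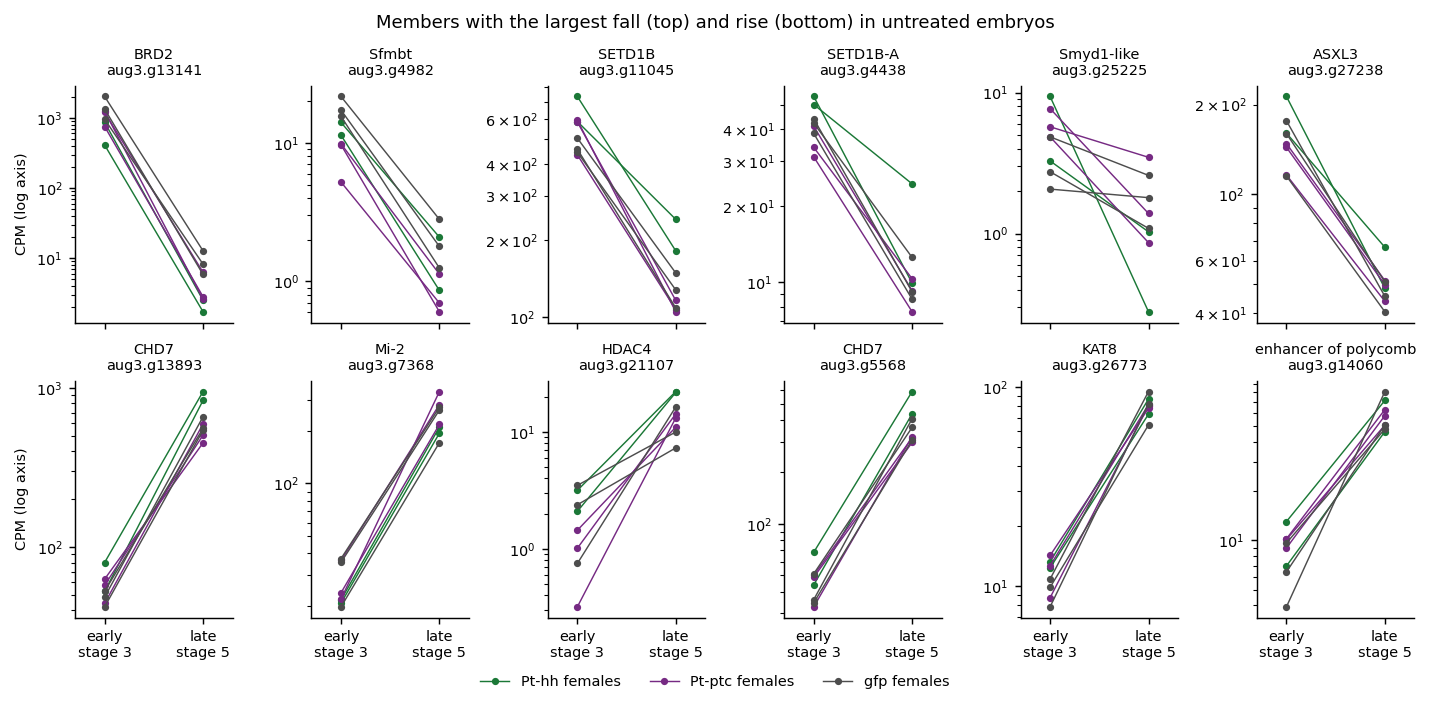
CPM (log axis) of the 6 members with the largest fall and the 6 with the largest rise among those with the same direction in all females, at both stages of the untreated egg sacs; each line is 1 of 8 females, coloured by the dsRNA she later received. BRD2 fell from a median of 1074 to 4.34 CPM and CHD7 rose from 52.7 to 575.8 CPM, each in all 8 females.

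The models with the largest rise and the next, CHD7 aug3.g13893 and Mi-2 aug3.g7368, are remodelling helicases of the CHD family. The other CHD7 model also rose strongly, while the other Mi-2 model rose little and CHD1-like was not called. CHD7, an ATP-dependent remodeller that in vertebrates is needed for neural crest and ear development, is carried by 2 models under 1 identifier. Model aug3.g13893 (scaffold 1749, 139587 to 189214, minus strand) lay between 42.1 and 80.0 CPM at stage 3 with a median of 52.7, and between 452.1 and 951.0 CPM at stage 5 with a median of 575.8. Every stage 5 library was above every stage 3 library, and the difference was 3.51 (SE 0.13, adjusted p 1.71e-11). The other CHD7 model, aug3.g5568, begins at base 1 of scaffold 668 and went from a median of 46.4 CPM (32.8 to 68.2) to 343.4 CPM (297.8 to 589.6), a difference of 3.05 (SE 0.12). CHD1-like, a remodeller known to act on transcribed genes, was not called at 0.18 (SE 0.10), with medians of 290.2 and 339.0 CPM. The chromodomain Y-like model was not called either at 0.36 (SE 0.16, adjusted p 0.064).

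Mi-2, the remodelling subunit of the nucleosome remodelling and deacetylase (NuRD) complex, was the chromodomain gene with the most RNA per length at stage 3. It also had 2 models under 1 identifier. Model aug3.g7367 rose from a median of 1056.6 CPM (854.8 to 1266.9) to 1403.3 CPM (1123.8 to 1672.6), a difference of 0.46 (SE 0.09). Its neighbour aug3.g7368 rose from 22.9 CPM (19.9 to 37.4) to 239.0 CPM (170.6 to 333.2), a difference of 3.16 (SE 0.13, adjusted p 4.64e-11). Per length, aug3.g7367 went from a median of 91.7 to 116.4 RPKM, reads scaled to the length of the model and to the library and aug3.g7368 from 22.6 to 204.7 RPKM, so the order of the models turned between the stages. The models lie on the same strand of scaffold 25 and overlap, at 488663 to 566409 and 560106 to 594889, and are annotated as transcript variants X3 and X7. Under the authors' counting mode, a read that overlaps counted parts of both models is counted for neither. How many reads this took from either model was not tested.

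The bromodomain family held the largest fall of all members. Model aug3.g13141, annotated as BRD2 (scaffold 1598, 67905 to 93674, minus strand), lay between 410.4 and 2016.5 CPM at stage 3, with a median of 1074, and between 1.72 and 12.7 CPM at stage 5, with a median of 4.34. All 8 females showed it, no library of stage 5 came near any of stage 3, and the difference was -7.80 (SE 0.22, adjusted p 1.70e-12), 223-fold lower. BRD2 belongs to the BET proteins, which bind acetylated histones through a pair of bromodomains and bring transcription factors to chromatin, and 3 other tested models are named BRD2 or BRD3. Model aug3.g13142, named BRD3 and carried by the same scaffold, fell from a median of 151.3 to 50.3 CPM, a difference of -1.54 (SE 0.16). BRD2 model aug3.g7899 rose by 0.78 (SE 0.11, medians 123.0 and 219.9 CPM), and BRD3 model aug3.g16069 rose by 1.14 (SE 0.09, medians 148.7 and 320.9 CPM).

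The summed level of these 4 models was therefore made up differently at each stage. As a share of their summed RPKM, aug3.g13141 took a median of 79% at stage 3 (61.5 to 91.6% over the 8 females) and 2.01% at stage 5 (0.674 to 5.63%). At stage 5 the sum was divided between aug3.g16069 with a median share of 35.4%, aug3.g7899 with 34.3% and aug3.g13142 with 27%. The summed level had a median of 789.9 RPKM at stage 3 (303.1 to 1312.8) and 114.3 RPKM at stage 5 (96.8 to 121.3).

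The other bromodomain proteins rose, with 1 exception. BAZ1A and BAZ2B are related to subunits that guide the ISWI remodelling ATPases. BAZ1A model aug3.g6843 rose from 194.4 to 326.1 CPM to 452.9 to 718.7 CPM (1.09, SE 0.10), and BAZ2B model aug3.g4504 from 43.6 to 122.6 CPM (1.5, SE 0.11). BRWD3, which carries WD repeats and bromodomains, rose from 69.6 CPM (61.2 to 120.7) to 356.7 CPM (304.9 to 446.7), a difference of 2.25 (SE 0.11), with no overlap between the stages. The exception was BRD7-like, a subunit of a SWI/SNF complex in mammals, which fell by 0.40 on the log2 scale (SE 0.12) with overlapping ranges.

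Among the enzymes that methylate histone lysines, the SETD1 models fell. SETD1 enzymes place the lysine-4 mark of histone H3 at active promoters. SETD1B model aug3.g11045, the methyltransferase with the most RNA per length at stage 3, went from a median of 544.9 CPM (434.1 to 736.5) to 121.9 CPM (104.8 to 242.0), a difference of -1.98 (SE 0.13). SETD1B-A model aug3.g4438 went from 41.8 CPM (31.2 to 54) to 9.57 CPM (7.63 to 24.4), a difference of -1.95 (SE 0.16). The stage 3 and stage 5 libraries of both models were fully separate. The tested models named for KMT2 or trithorax did not follow. KMT2C was not called at -0.01 (SE 0.12), KMT2E rose by 0.79 (SE 0.12), and trithorax was divided between models aug3.g2379, which rose by 0.56 (SE 0.11), and aug3.g2380, annotated KMT2A-like, which was not called at -0.13 (SE 0.10). These last models follow each other on the same strand of scaffold 384, from 419230 to 440297 and from 445890 to 504642.

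The remaining methyltransferases moved in both directions. The DOT1-like enzyme, which methylates the globular face of histone H3 on transcribed genes, rose from a median of 30.2 CPM (10.9 to 62) to 125.5 CPM (96.2 to 195.8), the largest rise of the family at 2.16 (SE 0.19). SUV39H2-like, which writes the lysine-9 mark of heterochromatin, rose from 62.6 CPM to 126.6 CPM (0.95, SE 0.13). The other lysine-9 methyltransferases, EHMT2 at -0.11 (SE 0.19) and SETDB1 model aug3.g4240 at 0.25 (SE 0.14), were not called. The other SETDB1 model, aug3.g4241, lay between 0.608 and 4.14 CPM in all these libraries and was called higher at 0.99 (SE 0.31, adjusted p 0.00986). NSD2-like fell by 0.88 on the log2 scale (SE 0.14) and SETD2-like model aug3.g3446 fell by 0.96 (SE 0.13). NSD2 and SETD2 methylate lysine 36 of histone H3. The 2 models named SETD2 also fell, by 0.40 and 0.33, with 7 of 8 females lower in each. Smyd1-like aug3.g25225 fell by 1.68 (SE 0.40) from 4.86 to 1.24 CPM with overlapping ranges.

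**Figure D3:**
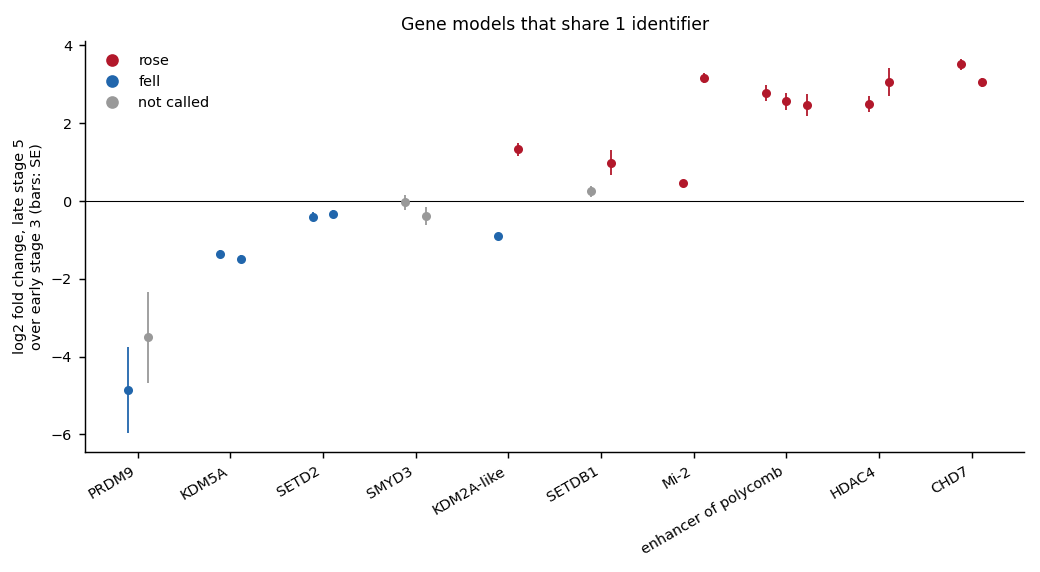
Log2 fold change between untreated late stage 5 and early stage 3 (vertical axis, bars are standard errors) of gene models that carry the same gene identifier, for the 10 identifiers with at least 2 tested models. Red rose, blue fell and grey was not called; the KDM2A-like models lie at -0.91 and 1.33, on either side of 0, and the Mi-2 models at 0.46 and 3.16.

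Most SETMAR-like and PRDM9 models had too few reads to be tested. A SETMAR-like model, aug3.g8167, fell from a median of 43.7 to 14.3 CPM (-1.58, SE 0.14) in all 8 females, and another, aug3.g4798, rose from 56.5 to 93.2 CPM (0.57, SE 0.13). PRDM9 model aug3.g6110 was called lower, yet it had counts at stage 3 in only 3 of 8 females, at most 27 in 1 library, and 0 counts at stage 5 in all 8, so no fold is given for it.

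Among the lysine demethylases, which erase methyl marks, 4 models fell and 3 rose. KDM5A, which removes the lysine-4 mark of histone H3, is the name of models aug3.g20361 and aug3.g15051. The former went from a median of 393.8 CPM (307.9 to 582.3) to 145.4 CPM (125.3 to 188.3), a difference of -1.49 (SE 0.10), and the latter from 297.4 CPM (238.2 to 462.8) to 116.7 CPM (99.0 to 199.5), -1.35 (SE 0.10). In the lysine-9 demethylases KDM3A-like and KDM3B, which are related to each other, the directions were opposite. KDM3A-like fell from 178.3 CPM (158.5 to 220.1) to 73.7 CPM (67.7 to 85.8), -1.27 (SE 0.09), and KDM3B rose from 34.7 CPM (23.1 to 44.8) to 89.6 CPM (72.2 to 129.8), 1.35 (SE 0.12). KDM2A-like, a lysine-36 demethylase, had a long model that fell from 489.8 to 262.8 CPM (-0.91, SE 0.09) and a short model at the end of a small scaffold that rose from 16.8 to 46.4 CPM (1.33, SE 0.16). KDM4A-like was not called at -0.04 (SE 0.13), and NO66, a hydroxylase with a JmjC domain, rose by 0.42 (SE 0.10).

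KAT8 rose, while 5 other acetyltransferase models fell. KAT8 (MOF), which acetylates lysine 16 of histone H4 and is known for dosage compensation in Drosophila, went from a median of 11.6 CPM (7.83 to 14.2) to 81.1 CPM (64.4 to 94.9), a difference of 2.85 (SE 0.14, adjusted p 2.56e-10). All 8 females showed the rise without overlap. The type B enzyme HAT1, which acetylates newly made histone H4 before it is packed on DNA, fell from 795.3 CPM (349.5 to 1062.8) to 264.1 CPM (213.0 to 370.3), -1.43 (SE 0.15). It had the most RNA per length of its family at both stages. p300-like, a transcriptional co-activator, fell from 522.9 to 237.1 CPM (-1.10, SE 0.10), and KAT7-like fell from 52.3 to 21.9 CPM (-1.11, SE 0.16). Of 3 models named KAT6B, aug3.g11595 and aug3.g1713 fell, by 1.45 and 1.11 on the log2 scale, and aug3.g8366 rose by 0.52 (SE 0.10). KAT2A-like at 0.14 (SE 0.18) and KAT5 at 0.16 (SE 0.13), the catalytic subunits of the SAGA and NuA4 complexes, were not called.

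The deacetylases moved in both directions. HDAC4, a class II deacetylase that in vertebrates restrains muscle and cartilage genes, rose in both its models. Model aug3.g21107 went from a median of 1.76 CPM (0.318 to 3.49) to 13.8 CPM (7.31 to 22.2), a difference of 3.07 (SE 0.36), and aug3.g16208 from 1.79 CPM (1.01 to 2.34) to 9.65 CPM (8.0 to 13.1), 2.50 (SE 0.21). HDAC3, the enzyme of the NCoR corepressor complex, rose from 24.1 CPM (14.6 to 33.1) to 72.8 CPM (60.9 to 86.5), 1.63 (SE 0.17). HDAC8 fell from 55.4 to 26.1 CPM (-0.98, SE 0.13), as did the SIN3 complex component SDS3 (-1.21, SE 0.11) and the SAP130 subunit (-0.49, SE 0.14). HDAC2, the deacetylase with the most RNA per length at both stages, was not called at 0.21 (SE 0.09), with medians of 355.8 and 432.8 CPM, and neither were HDAC6-like, HDAC11, SAP18-like and SAP30L. An HDAC1-like model had 113 counts in all and was not tested.

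Polycomb repressive complex 2 (PRC2) writes the silencing lysine-27 mark of histone H3 through E(z), with Suz12 and Eed as partners. E(z)-like, counted with the methyltransferases, was not called at 0.18 (SE 0.17), with medians of 116.0 and 129.1 CPM, and suz12-like was not called at -0.30 (SE 0.13). Eed, the polycomb model with the most RNA per length at both stages, rose by 0.69 (SE 0.10) from 69.3 CPM (22.3 to 78.0) to 105.6 CPM (39.1 to 147.1), with overlapping ranges. Polycomb itself (Pc-like), which reads the mark through its chromodomain, rose from 31.4 CPM (19.5 to 40.1) to 61.5 CPM (52.4 to 75.4), 0.99 (SE 0.14). The models named for polycomb RING finger proteins went apart. PCGF3-like rose from 3.08 to 14.5 CPM (2.18, SE 0.20), BMI-1-like fell from 115.8 to 47.7 CPM (-1.29, SE 0.14), and the tested Psc-like models aug3.g1369 (-0.51, SE 0.32) and aug3.g10036 (0.37, SE 0.14) were not called.

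The MBT-domain polycomb proteins, which in Drosophila help to recruit the complexes, moved in opposite directions. Sfmbt fell from a median of 12.8 CPM (5.23 to 21.7) to 1.19 CPM (0.604 to 2.81), a difference of -3.27 (SE 0.20), in all 8 females without overlap. Scm rose from 13.5 CPM (10.7 to 20.9) to 38.4 CPM (33.5 to 47.3), 1.49 (SE 0.14). ASXL3, a partner of a histone H2A deubiquitinase, fell from 154.0 CPM (115.3 to 213.1) to 49.1 CPM (40.4 to 66.5), -1.63 (SE 0.12). The 3 enhancer of polycomb models share an identifier and each begin at base 1 of a scaffold, and all rose, aug3.g14060 from 9.30 CPM (3.92 to 13.0) to 54 CPM (46 to 80.8), 2.77 (SE 0.20), and the others by 2.56 and 2.46.

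SWI/SNF complexes slide and evict nucleosomes at promoters and enhancers. Of their members, the scaffold subunit SMARCC2-like rose from a median of 334.5 CPM (258.4 to 406.4) to 827.8 CPM (641.3 to 971.4), 1.29 (SE 0.10). SMARCAD1, a helicase related to the ATPases, rose from 116.0 CPM (75.7 to 147.2) to 297.2 CPM (281.2 to 327.1), 1.44 (SE 0.11). The core subunits SMARCB1 (-0.24, SE 0.11) and SMARCE1-like (0.31, SE 0.13), and the annealing helicase SMARCAL1 (0.09, SE 0.12), were not called. DNA methyltransferase 1-associated protein 1, a subunit of the NuA4 acetyltransferase complex, fell from 81.0 to 55.8 CPM (-0.58, SE 0.11) in all 8 females.

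Models that share an identifier can be set side by side, as in the plot of log2 differences by identifier. Of 10 identifiers with at least 2 tested models, 9 had models with the same sign of difference, and in 7 every model was called. KDM2A-like was the one with opposite signs. CHD7, enhancer of polycomb, KDM5A, HDAC4 and SETD2 differed by 0.07 to 0.57 between their models, while Mi-2 differed by 2.70. The 61 called members carry 53 identifiers, of 77 among the 88 tested.

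Chromatin genes outside the rule were chosen by other words in the description, which were nucleosome, chromatin assembly, chromatin-remodeling, histone chaperone, histone-binding protein, arginine N-methyltransferase, INO80, ISWI, NAD-dependent protein deacetylase, sirtuin, chromobox, heterochromatin protein, methyl-CpG, methylcytosine dioxygenase, inhibitor of growth protein, structural maintenance of chromosomes, trithorax, cohesin and condensin. Of 66 tested, 30 were higher (45.5%, against 31.9% of all models) and 17 lower (25.8%, against 33.9%), with a median difference of 0.38 against -0.07 over all models. Of 18 models for histone proteins tested, 8 were higher (44.4%) and 7 lower (38.9%), with a median of 0.35, although poly(A) selection takes few of the histone RNAs that lack a tail.

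From late stage 5 to early stage 6, when the disc begins to turn into a germ band, almost nothing moved past the threshold in the untreated egg sacs of the 5 other females. Of 86 members tested, 1 was called, where 2.25% of all 12689 models were called and 0.804% were called lower. It was SETDB1 model aug3.g4240, a lysine-9 methyltransferase that silences transposons (scaffold 540, 245767 to 296004, minus strand). In gfp females 4 and 5 it went from 137.8 to 86.3 CPM and from 218.0 to 132.8 CPM. In Pt-msx1 females 1, 2 and 3 it went from 87.2 to 67.5, from 155.2 to 108.6 and from 284.5 to 129.0 CPM. It was lower at stage 6 in 5 of 5 females, although the ranges of the stages overlapped, and the difference was -0.69 (SE 0.11, adjusted p 0.00307). The call was lost when gfp female 4 or 5 or Pt-msx1 female 2 or 3 was left out, with adjusted p values between 0.0106 and 0.0252 and differences between -0.74 and -0.58. The second SETDB1 model aug3.g4241 (-0.87, SE 0.19) and the 3 enhancer of polycomb models (-0.38 to -0.67) were lower in 5 of 5 females with adjusted p values between 0.013 and 0.0324. Genes with a large change between stages 3 and 5, CHD7, Mi-2, BRD2 and KAT8 among them, were not called here.

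**Figure D4:**
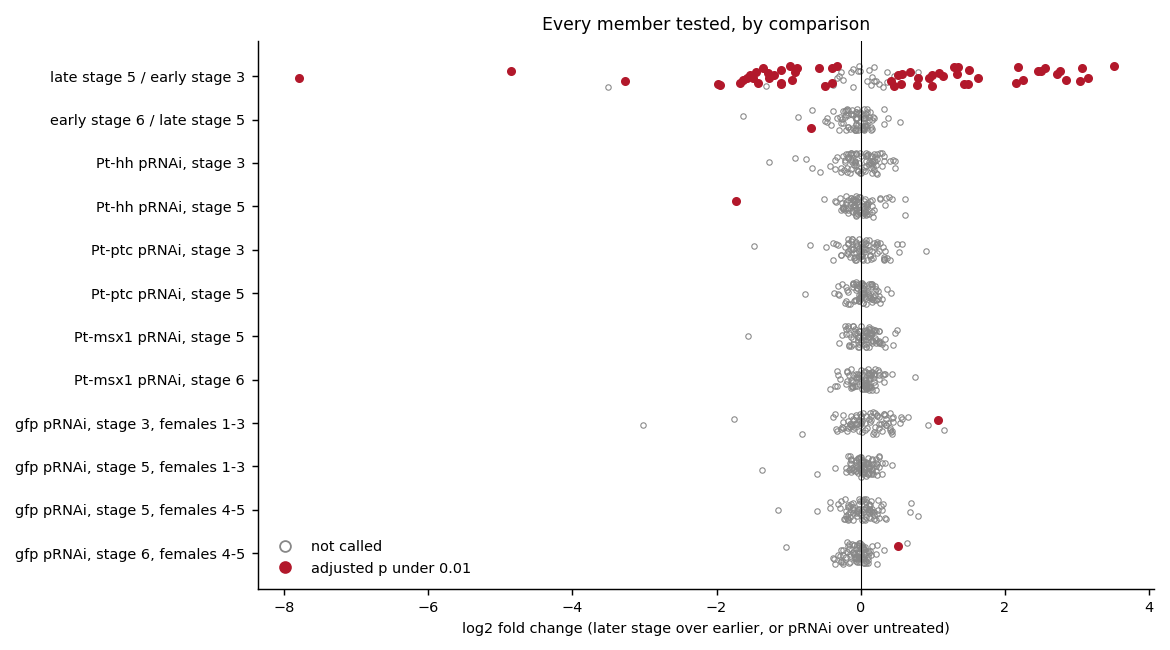
Log2 fold change of every member tested in each comparison, later stage over earlier stage in the upper 2 bands and pRNAi over untreated in the other 10; filled red points were called at an adjusted p under 0.01 and open grey points were not. The stage 3 to 5 band holds 61 red points, and all the other bands together hold 4.

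The pRNAi comparisons asked whether these genes respond when hedgehog signalling is altered or when Pt-msx1 is the target of injection. The paper proposes that knockdown of Pt-ptc, a negative regulator, raises this signalling. Across 10 comparisons of pRNAi with untreated egg sacs of the same females, 3 members were called once each, and 2 of the 3 calls were in gfp. In Pt-hh pRNAi at stage 5, 1 of 85 members was called, where 3.55% of all models were called and 1.21% lower. In gfp pRNAi at stage 3, 1 of 88 was called, an enhancer of polycomb model higher, where 1.26% of all models were called and 0.495% higher. In gfp pRNAi at stage 6, 1 of 85 was called, SETDB1 higher, where 1.71% of all models were called and 1.04% higher. In the 10 comparisons, between 83 and 86 of the 84 to 88 members tested differed by less than 1 on the log2 scale.

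In the other 7 comparisons edgeR called 0 members. The shares of all models called were 0.34% in Pt-hh pRNAi and 0.134% in Pt-ptc pRNAi at stage 3, 1.01% in Pt-ptc pRNAi at stage 5, 0.137% in gfp pRNAi at stage 5 of females 1 to 3 and 0.231% of females 4 and 5. They were 0.0% in the libraries labelled Pt-msx1 pRNAi at stages 5 and 6, so there no gene at all was called. The paper, in its own edgeR run at an FDR under 0.01, lists genes that differed in Pt-msx1 pRNAi at stage 6. The lack of calls here therefore does not show that no gene responded. The stage 6 fit also holds 1 of the identical libraries. At an unadjusted p under 0.05, edgeR gave 9 of 86 members in Pt-hh pRNAi at stage 3 (15.1% of all models), 14 of 86 in Pt-ptc pRNAi at stage 3 (15.7%) and 7 of 85 at stage 5 (14.9%). It gave 3 of 86 in Pt-msx1 pRNAi at stage 5 (5.59%) and 3 of 86 at stage 6 (6.23%), 8 of 85 in gfp pRNAi at stage 5 of females 1 to 3 (11.7%) and 4 of 84 of females 4 and 5 (9.05%). In each of these the members' share was below or near that of all models. DESeq2 called 1 member in Pt-ptc pRNAi at stage 3, the Psc-like model lower (1.06% of all models), and 2 in gfp pRNAi at stage 5 of females 1 to 3, SETDB1 higher among them (0.668%), and 0 in the other 5.

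The responses to Pt-hh, Pt-ptc and Pt-msx1 dsRNA were also tested against the response to gfp dsRNA. In none of these 6 differences, which share gfp females among them, was a member called by edgeR or by DESeq2. The shares of all models that edgeR called were 0.0276% for Pt-hh at stage 3 and 2.5% at stage 5, 0.0% for Pt-ptc at stage 3 and 0.365% at stage 5, and 0.0% for Pt-msx1 at both stages. At an unadjusted p under 0.05, edgeR gave for Pt-hh 9 of 88 members at stage 3 (7.75% of all models) and 6 of 85 at stage 5 (15.4%). For Pt-ptc it gave 10 of 88 at stage 3 (11.1%) and 2 of 85 at stage 5 (7.66%), and for Pt-msx1 2 of 86 at stage 5 (4.09%) and 0 of 86 at stage 6 (2.69%). Without both females of the identical libraries, only gfp female 4 is left to set against Pt-msx1 females 2 and 3 at stage 6. That fit has too few females to decide whether a member responds. The median standard error of a member in these differences was between 0.15 and 0.26.

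**Figure D5:**
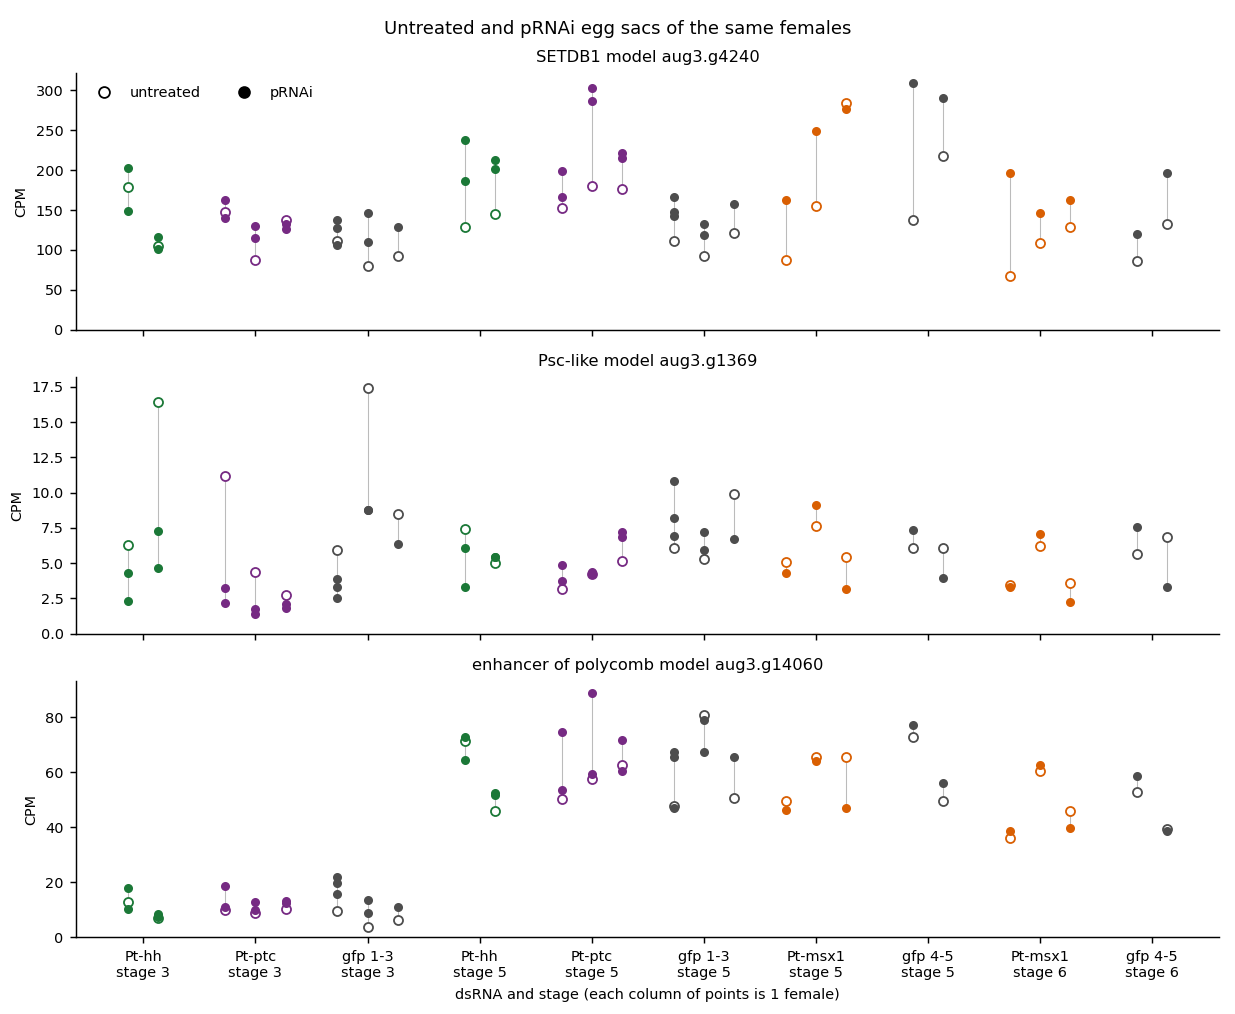
CPM of the 3 members described for pRNAi, SETDB1 model aug3.g4240, Psc-like and an enhancer of polycomb model, in untreated (open) and pRNAi (filled) egg sacs. Each column of points joined by a line is 1 female, grouped by dsRNA and stage. SETDB1 pRNAi points lie above the open point in 17 of 18 columns of stages 5 and 6, of which the stage 6 columns of gfp female 5 and Pt-msx1 female 1 show the same pRNAi counts, and in 15 of 16 without these columns.

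SETDB1 model aug3.g4240 lay higher in most pRNAi libraries of late stage 5 and early stage 6 than in the untreated ones, gfp pRNAi included. In 17 of 18 pairs of female and stage, every pRNAi library was above the untreated library of the female that its label names. The identical libraries stand in the stage 6 pairs of gfp female 5 and Pt-msx1 female 1, 1 of which therefore does not hold RNA of that female, and without both pairs the count was 15 of 16. In Pt-hh female 1 the stage 5 level was 129.1 CPM untreated and 237.7 and 186.5 CPM in pRNAi egg sacs, and in Pt-hh female 2 it was 145.1 CPM and 201.3 and 212.7 CPM. In gfp female 4 it was 137.8 and 309.3 CPM at stage 5 and 86.3 and 120.5 CPM at stage 6, and in gfp female 5 it was 218.0 and 289.8 CPM and 132.8 and 196.6 CPM. The pair that went the other way was Pt-msx1 female 3 at stage 5, with 284.5 CPM untreated and 277.2 CPM in pRNAi. The other SETDB1 model, aug3.g4241, was less even. Every pRNAi library was above the untreated one in 12 of 18 pairs and below it in 5. Without the identical libraries the counts were 10 and 5 of 16.

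As fitted by edgeR, the stage 5 differences of SETDB1 model aug3.g4240 were 0.61 (SE 0.13, adjusted p 0.0137) in Pt-hh pRNAi and 0.42 (SE 0.10, 0.0581) in Pt-ptc pRNAi. They were 0.44 (SE 0.09, 0.0492) and 0.80 (SE 0.21, 0.0806) in the gfp groups and 0.51 (SE 0.20, 0.836) in Pt-msx1 pRNAi, none of them called. The call came at stage 6 in gfp pRNAi, 0.52 (SE 0.11, adjusted p 0.00158), and DESeq2 gave an adjusted p of 0.0757 for it. This fit uses 1 of the identical libraries, and without gfp female 5 no test was left. In Pt-msx1 pRNAi at stage 6 the difference was 0.76 (SE 0.26, adjusted p 0.738), and 0.36 without Pt-msx1 female 1, who has the other identical library. At stage 3, 3 of 8 females had all pRNAi libraries above the untreated one, and 6 of 8 had a higher pRNAi mean. The 8 pairs of stage 3 hold 16 pRNAi libraries and the 18 later pairs hold 26. Having every library above is thus harder to meet at stage 3, and by the mean the later count is also 17 of 18. The stage 3 differences were 0.00 (SE 0.15) in Pt-hh, 0.13 (SE 0.12) in Pt-ptc and 0.40 (SE 0.14) in gfp pRNAi. The difference from the gfp response was 0.18 (SE 0.15) for Pt-hh and -0.02 (SE 0.14) for Pt-ptc at stage 5.

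At stage 3 the enhancer of polycomb models were higher in pRNAi egg sacs of most females, with the only call in gfp pRNAi. Over the 3 kinds of dsRNA, every pRNAi library of aug3.g14060 was above the untreated one in 7 of 8 females. For aug3.g21331 this held in 6 of 8 females and for aug3.g22195 in 7 of 8. Model aug3.g14060 lay at 9.62 CPM in the untreated egg sac of gfp female 1 and at 15.8, 19.9 and 21.9 CPM after injection. In gfp female 2 it lay at 3.92 CPM and then at 8.89 and 13.6 CPM, and in gfp female 3 at 6.41 CPM and then at 10.9 CPM. The difference was 1.07 (SE 0.21, adjusted p 0.00934), and the call was lost without gfp female 1, 2 or 3, with adjusted p values of 0.0559, 0.0967 and 0.0211. The others, aug3.g21331 at 0.94 (SE 0.26, adjusted p 0.0462) and aug3.g22195 at 1.16 (SE 0.33, adjusted p 0.0472), were not called. For aug3.g14060 the differences were 0.41 (SE 0.19) in Pt-ptc pRNAi and 0.14 (SE 0.25) in Pt-hh pRNAi. The Pt-hh response minus the gfp response was -0.92 (SE 0.34, adjusted p 0.489) and that of Pt-ptc was -0.65 (SE 0.29, adjusted p 0.4). At stage 5 the difference in gfp pRNAi was 0.17 (SE 0.14).

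Psc-like model aug3.g1369 is named for a polycomb RING finger protein. At stage 3 it was lower in every pRNAi library than in the untreated library of the same female. This held in 8 of 8 females and for 3 kinds of dsRNA. Untreated levels were 6.32 and 16.4 CPM in the Pt-hh females, 11.2, 4.36 and 2.74 CPM in the Pt-ptc females and 5.92, 17.4 and 8.48 CPM in the gfp females. The corresponding highest pRNAi levels were 4.27 and 7.27 CPM, then 3.22, 1.77 and 2.07 CPM, and 3.89, 8.79 and 6.36 CPM. The differences were -1.27 (SE 0.30, adjusted p 0.0537), -1.48 (SE 0.27, adjusted p 0.0262) and -0.81 (SE 0.19, adjusted p 0.0232), none of them called. The difference between responses was -0.45 (SE 0.35) for Pt-hh minus gfp and -0.67 (SE 0.33) for Pt-ptc minus gfp. At stage 5 it was lower in 5 of 13 females and higher in 8. This model and the comparisons of levels by female for it, SETDB1 and enhancer of polycomb were chosen after their values had been seen.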

How the data were processed

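Per the labels and the study's methods, stranded poly(A) libraries were sequenced on a MiSeq, reads were trimmed in CLC Genomics Workbench and aligned to Ptep_1.0 with BLAT, and the authors counted reads per aug3 gene model with HTSeq 0.5.4p5 in reverse-strand, union mode. The deposited counts are raw read counts per model, and the deposited RPKM values are the authors' counts scaled to model length and library size; replicates were not pooled. The authors' tables of log2 fold changes and FDR values were not used. No per-sample column was left without a sample (0 unused), and 7 stage 7 gfp samples were not analysed here.

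Counts were tested with edgeR 4.0.16 (R 4.3.3), glmQLFit and glmQLFTest, after TMM scaling, keeping models that reached 1 CPM in any library of the fit, with the female as a block. P values were adjusted (Benjamini-Hochberg) over all models tested, with a threshold of 0.01. Differences from gfp used a treatment by dsRNA term. CPM are TMM-scaled over all 68 libraries, and levels were set between genes only in RPKM. SEs were taken as the log2 difference over the square root of F. Same-numbered libraries come from the same female, and the correlation of their deviations ran from 0.28 to 0.81. The lowest, 0.28, was that of Pt-msx1 female 1 at stage 6, whose pRNAi library is among the identical ones. Pt-msx1 females 2 and 3 at stage 6 had 0.71 and 0.46. For gfp female 5 at stage 6, whose pRNAi library holds the same counts, the correlation was 0.77. That comparison holds only gfp females 4 and 5, so their values must be equal and say nothing of either label. Which of the labels is wrong was not tested. P values measure the spread between egg sacs of few females, and egg sacs of 1 female are not separate animals. Alternatives were RLE scaling, no low-count filter, DESeq2 1.42.0, no block, summed or single pRNAi egg sacs and leaving out each female. The fits of some comparisons were run on simulated counts with the same spread for every model. In these, pRNAi egg sacs of 1 female shared only what she shared with her untreated egg sac. They therefore do not bear on how egg sacs of few females act as replicates. The 68 totals limit low models: at the median of 9854679 reads, 1 CPM is about 10 reads.

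The members and gene lists were chosen with earlier results of these data known. Named members were the 6 largest called rises and falls between stages that moved alike in every female, members called in pRNAi, the highest mean RPKM of each family and stage, and textbook chromatin genes matched by name. Other members with values were named after these were seen, and the values of 1 member that the rule would name are not reported here. Models that share an identifier may be fragments of 1 gene or copies, and reads could be divided between them. No reference genome was used; coordinates are those of the deposited files.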

Additional observations from a re-analysis of the deposited data

Results flagged for a closer look

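In 6 of 107 groups of 4 to 10 libraries of the named members, 1 library lay far above the others by Dixon's test at the 95% level, and chance alone flags about 1 in 20 groups. All 6 were untreated libraries of the Pt-hh females.

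Pt-hh female 1 had 258.8 CPM of KMT2E model aug3.g14916 at stage 3, where the next library had 171.1 and the lowest 112.9 CPM. At stage 5 this female had 199.5 CPM of KDM5A model aug3.g15051 (next 136.8, lowest 99.0), 66.5 CPM of ASXL3 (next 51.4, lowest 40.4) and 24.4 CPM of SETD1B-A model aug3.g4438 (next 12.5, lowest 7.63). Pt-hh female 2 had 114.5 CPM of SETD2-like model aug3.g3446 at stage 5 (next 84.9, lowest 60.8) and 370.3 CPM of HAT1 (next 275.3, lowest 213.0).

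Without Pt-hh female 1, 57 members were called between stages 3 and 5, and without Pt-hh female 2, 59.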

How the results depend on the processing

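Between untreated stages 3 and 5, 56 to 61 members were called under every alternative (57 with no replicate block), of which 56 to 60 were among the 61 called, and no call changed sign. Leaving out a female gave 56 to 60. The block on the female, from whom both libraries of a pair come, changed the other counts as follows: with no replicate block, 0 members were called from stage 5 to 6, in Pt-hh pRNAi at stage 5, in gfp pRNAi at stage 3 and in gfp pRNAi at stage 6, against 1 each with it. With no low-count filter, 5 were called from stage 5 to 6 (4.08% of all models), 1 in Pt-hh pRNAi at stage 3 (1.43%) and 2 at stage 5 (4.79%), 1 and 2 in Pt-ptc pRNAi (1.79% and 2.29%), and 2 and 1 in gfp pRNAi of females 1 to 3 (2.41% and 1.32%). DESeq2 called 2 from stage 5 to 6 (3.51% of all models), 2 in Pt-hh pRNAi at stage 5 (3.94%), 1 in Pt-ptc pRNAi at stage 3 (1.06%), 4 and 2 in gfp pRNAi at stages 3 and 5 of females 1 to 3 (3.48% and 0.668%), and 0 in gfp pRNAi at stage 6 (0.36%). In Pt-hh pRNAi the second egg sac alone gave 2 calls at stage 3 (2.33% of all models) and 0 at stage 5 (1.43%), and summed egg sacs gave 0 at stage 5 (1.01%). Leaving out 1 female gave 0 to 2 calls from stage 5 to 6, 0 to 2 in Pt-hh pRNAi at stage 3, and 0 in gfp pRNAi at stage 3. Leaving out gfp female 4 or 5 could not be fitted in their pRNAi comparisons. The causes were not tested.

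Of 68 results for named members, 46 kept direction and side of the threshold under every alternative. Of 745 alternative values, 38 lost the call, 14 gained it and 12 turned sign, all of the last from values near 0 or not called. EHMT2 was at 0.01 without Pt-ptc female 2, in a range of -0.24 to 0.01 over the females left out. KMT2C was at 0.03 with no filter and at 0.05, 0.06 and 0.01 without gfp female 1, gfp female 3 or Pt-hh female 2, in a range of -0.07 to 0.06. KDM4A-like was at 0.03, 0.00 and 0.03 without Pt-hh female 1, Pt-ptc female 1 or Pt-ptc female 3, in a range of -0.12 to 0.03. SETDB1 aug3.g4240 in Pt-hh pRNAi at stage 3 was at 0.00 with no filter, 0.02 with summed and 0.13 with second egg sacs, and in Pt-ptc pRNAi at stage 3 at -0.05 without Pt-ptc female 2 (range -0.05 to 0.25). Depth limits low members such as PRDM9 aug3.g6110, which had 66 counts over the 68 libraries and an SE of 1.11 against a median of 0.13 over tested members.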
